A study of Homo sapiens with 12 samples.

Results

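The genes described here were NFE2L2, which encodes the transcription factor NRF2, its inhibitor KEAP1, the established NRF2 targets TXNRD1, SRXN1, GCLM, NQO1 and HMOX1, and the ferritin subunit genes FTH1 and FTL. They were taken by gene name from the deposited count table, and all 9 were among its 32077 genes. Poly(A)-selected RNA had been sequenced from PC3 and DU145 cells, human prostate cancer lines that grow without androgen, both given as wild type. Each line was cultured for 48 hours with vehicle or with 2.5 μmol/L pentamidine, an antiprotozoal diamidine, which gave 4 groups (vehicle-treated PC3, pentamidine-treated PC3, vehicle-treated DU145 and pentamidine-treated DU145) of 3 samples each and 12 samples in all. The labels do not say whether the 3 samples of a group were separate cultures, so p-values measure the spread between these samples, which may be technical.

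In unstressed cells, KEAP1 holds NRF2 on a CUL3 ubiquitin ligase and NRF2 protein is degraded. Electrophiles and oxidants modify cysteines of KEAP1, and NRF2 then accumulates, pairs with a small MAF protein and binds antioxidant response elements in the regulatory DNA of genes for thioredoxin and glutathione metabolism, quinone reduction, heme breakdown and iron storage. NRF2 is controlled mainly at the protein level, which RNA-seq does not measure. Ferritin is a shell of heavy (FTH1) and light (FTL) chains that stores iron. Its synthesis is also held back by iron regulatory proteins that bind the ferritin mRNAs, a step that mRNA levels do not show either.

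Total counts ranged from 13514195 to 15131436 per sample. KRT18, an epithelial keratin, was measured at 144 to 940 CPM (counts per 1e6 counts of a sample, after TMM scaling) in the 12 samples. Its partner keratin KRT8 averaged 20.2 and 17.3 CPM in vehicle- and pentamidine-treated PC3 cells and 2707 and 1829 CPM in DU145 cells, and the epithelial markers EPCAM and CDH1 were at or near 0 in both lines, with at most 2 and 10 counts in any sample. The leukocyte markers PTPRC and LYZ had at most 1 count, the endothelial marker PECAM1 at most 10, and the fibroblast collagens COL1A1 and COL1A2 at most 40 and 2. The levels below are sums over all cells of a sample, in which a change in every cell and a change in some of the cells cannot be told apart.

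The antioxidant response element has the core TGACNNNGC, where N is any base. The core was searched on both strands of RefSeq promoter windows of 300 bases (GRCh38.p14; 250 bases before to 50 after a transcription start). Such windows matched 7 of the 9 genes, 10 windows in all, and none was used for HMOX1 and FTH1. The core was present in 4 of the 10 windows, those of GCLM, KEAP1 (1 of its 2 windows) and TXNRD1 (both windows), against 13.3% of all 35116 windows. The stretches below show what these genes share in sequence, 5′ to 3′ on the gene's strand up to the transcription start at most, with the core in capitals.
GCLM, chr1:93909431-93909494, minus strand: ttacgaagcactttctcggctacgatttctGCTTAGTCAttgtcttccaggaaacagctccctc
KEAP1, chr19:10502772-10502855, minus strand: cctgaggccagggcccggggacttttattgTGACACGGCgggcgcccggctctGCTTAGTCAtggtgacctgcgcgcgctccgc
TXNRD1, first start, chr12:104215650-104215718, plus strand: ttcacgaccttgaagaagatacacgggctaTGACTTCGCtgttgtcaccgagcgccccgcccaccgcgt
TXNRD1, second start, chr12:104286900-104286968, plus strand: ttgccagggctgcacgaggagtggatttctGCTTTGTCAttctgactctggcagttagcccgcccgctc
The GCLM match and the downstream KEAP1 match were the same 9 bases on the strand opposite to the gene, TGACTAAGC, and began 34 and 31 bases before the respective start. A further TXNRD1 match, TGACGGAGC, ran across the first start. No core was found in the windows of NFE2L2, SRXN1, NQO1 and FTL, which says only that these letters do not occur there. The 3 genes with a core moved differently after pentamidine, as the values below show. TXNRD1 rose in both lines, while GCLM fell in DU145 cells and KEAP1 fell in PC3 cells.

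After pentamidine, most of these mRNAs were higher in both lines. The 9 genes were chosen with earlier results of these data known, so the counts below describe them and test nothing about the pathway. In PC3 cells, 6 of the 9 genes rose (NFE2L2, TXNRD1, NQO1, HMOX1, FTH1 and FTL), where 21.7% of the 13861 genes tested rose at an adjusted p below 0.05 in edgeR's quasi-likelihood test. KEAP1 fell, as did 21.7% of the genes tested. In DU145 cells, SRXN1 had too few counts to be tested, and the same 6 genes rose among the 8 tested, against 17.2% of 14313 genes. GCLM fell there, against 16.8%. The median log2 fold change was 0.76 over the 9 genes tested in PC3 cells and 0.51 over the 8 in DU145 cells, beside 0.00 and 0.01 over all genes tested. At the threshold of the study, an absolute log2 fold change above 1 with an adjusted p below 0.05, TXNRD1, HMOX1, FTH1 and FTL rose in PC3 cells (4 of 9, against 3.44% of all genes) and FTH1 alone rose in DU145 cells (1 of 8, against 1.37%). FTH1 in DU145 cells was only just past that fold and fell short of it, still with an adjusted p below 0.05, without vehicle sample 1 (0.85) or 2 (0.96), without pentamidine sample 2 (0.96) or 3 (0.97), and with its pseudogene reads added (0.997), which leaves none of the 8 genes past that threshold. The groups did not overlap for 7 of 9 genes in PC3 cells and for 7 of 8 in DU145 cells, where 52.1% and 44% of all genes tested did not overlap.

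**Figure D1:**
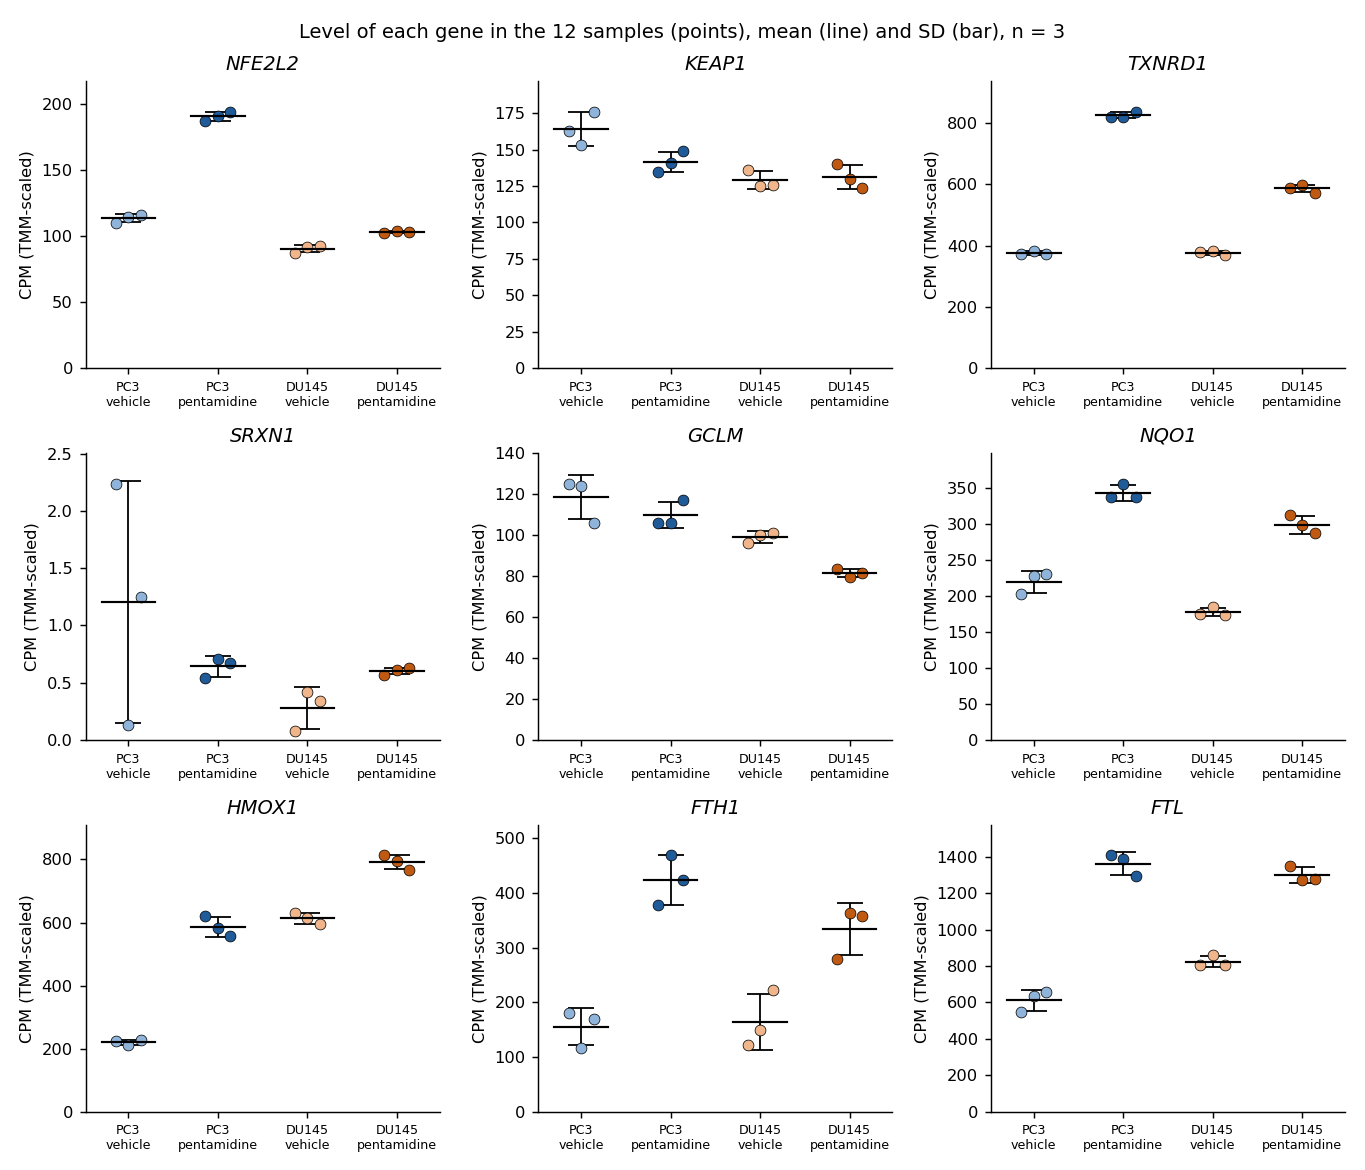
CPM scaled by TMM (y axis, from 0) of each of the 9 genes in the 4 groups (x axis); points are samples, the horizontal line is the mean and the bar the SD of 3 samples. HMOX1 in pentamidine-treated PC3 cells lay at 557 to 621 CPM, within reach of vehicle-treated DU145 cells at 594 to 631 CPM, and SRXN1 stayed below 2.5 CPM in every sample.

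**Figure D2:**
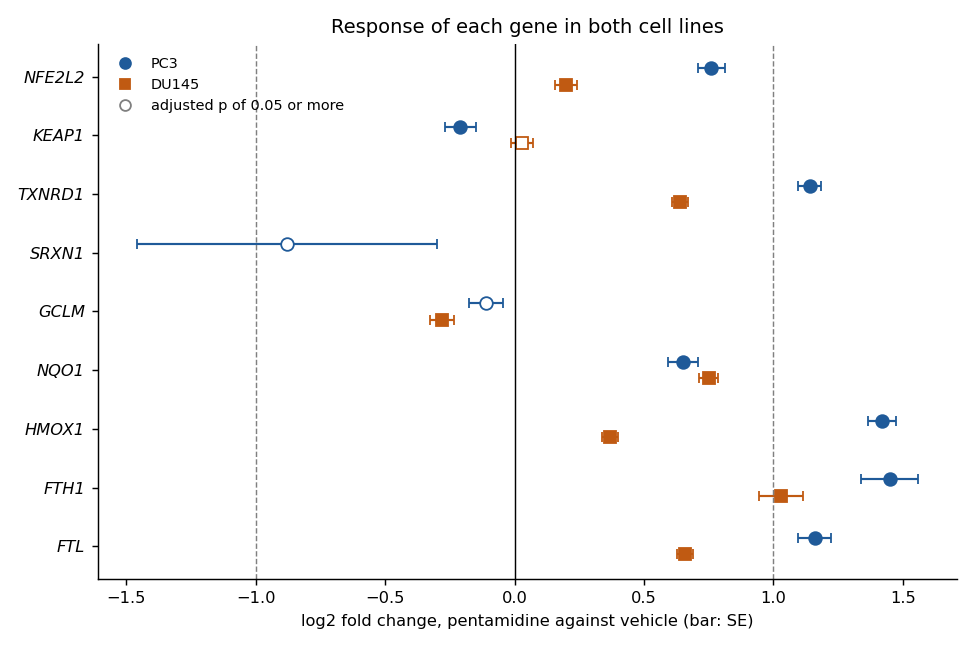
Log2 fold change of pentamidine-treated against vehicle-treated cells (x axis) for each gene (y axis) in PC3 (circles) and DU145 cells (squares); bars are SE, open symbols have an adjusted p of 0.05 or more and the dashed lines mark a log2 fold change of 1 in either direction. HMOX1 shows the widest gap between the lines among the genes tested in both, 1.42 in PC3 against 0.37 in DU145 cells.

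NFE2L2 (ENSG00000116044, chr2:177227595-177392697, minus strand) was measured at 110, 114 and 116 CPM in the vehicle-treated PC3 samples and at 187, 191 and 194 CPM after pentamidine. All 3 treated samples lay above all vehicle samples, and the log2 fold change was 0.76 (SE 0.051, adjusted p = 2.6e-09). In DU145 cells it was 87.5, 91.3 and 92.2 CPM with vehicle and 102, 104 and 103 CPM with pentamidine. The groups were again separate, but the rise was small, 0.20 on the log2 scale (SE 0.043, adjusted p = 0.00022). The rise was smaller in DU145 than in PC3 cells by 0.56 (SE 0.062, adjusted p = 1.3e-07 for the difference of log2 fold changes), and NFE2L2 was thus ordered pentamidine-treated PC3, vehicle-treated PC3, pentamidine-treated DU145, vehicle-treated DU145, with no overlap between neighbours. The gene shares 17.6% of its exon length with AC019080.1 on the same strand, which held 389 counts in the 12 samples together.

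KEAP1 (ENSG00000079999, chr19:10486120-10503741, minus strand) was measured at 163, 153 and 176 CPM in vehicle-treated and at 135, 141 and 149 CPM in pentamidine-treated PC3 cells. Its log2 fold change was -0.21 (SE 0.059, adjusted p = 0.0088), a 1.15-fold lower level, and the call was lost without pentamidine-treated PC3 sample 1 (adjusted p = 0.0663). In DU145 cells KEAP1 was at 136, 125 and 126 CPM with vehicle and at 140, 130 and 124 CPM with pentamidine, and these groups overlapped (log2 fold change 0.03, SE 0.043, adjusted p = 0.64). The responses differed between the lines by 0.24 (SE 0.078, adjusted p = 0.03). That call did not hold with DESeq2 (adjusted p = 0.0516), nor when any 1 of 7 samples was left out (vehicle-treated PC3 sample 3, pentamidine-treated PC3 samples 1 and 2, vehicle-treated DU145 samples 2 and 3, pentamidine-treated DU145 samples 1 and 2), with adjusted p-values of 0.0529 to 0.113.

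TXNRD1 (ENSG00000198431, chr12:104215779-104350305, plus strand) encodes cytosolic thioredoxin reductase, the selenoenzyme that keeps thioredoxin reduced with electrons from NADPH. Its levels in vehicle-treated cells were nearly the same in both lines, 373, 384 and 373 CPM in PC3 and 379, 383 and 370 CPM in DU145 samples. With pentamidine they were 820, 821 and 837 CPM in PC3 and 589, 598 and 573 CPM in DU145 cells. All treated samples lay far above the vehicle samples of their line, and the rise was 2.2-fold in PC3 cells (log2 1.14, SE 0.045, adjusted p = 1.9e-12) and 1.56-fold in DU145 cells (log2 0.64, SE 0.031, adjusted p = 5.7e-24). The difference between the lines was -0.50 (SE 0.051, adjusted p = 3.2e-08).

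SRXN1 (ENSG00000271303, chr20:646615-653370, minus strand) encodes sulfiredoxin, which repairs overoxidized peroxiredoxins. It had 33, 2 and 17 counts in vehicle-treated and 8, 10 and 10 counts in pentamidine-treated PC3 cells, and 1, 6 and 5 against 8, 9 and 9 counts in DU145 cells. These values are uncertain, because 85.0% of its exon length lies in AL121758.1 on the same strand, which itself held 116 counts over the 12 samples, and how the counting treated reads in shared exons is not stated. The PC3 log2 fold change was -0.88 (SE 0.58, adjusted p = 0.24), and without vehicle-treated PC3 sample 2, the one with 2 counts, it was -1.44 (adjusted p = 0.0121), while without sample 1, the one with 33 counts, it was -0.05 (adjusted p = 0.957). All 3 treated DU145 samples were above all vehicle samples, but without a filter on low counts the log2 fold change of 1.06 had an adjusted p of 0.297. The difference between the lines, 1.95 (SE 0.89), did not pass the test either (adjusted p = 0.13). It was 2.50 without vehicle-treated PC3 sample 2 (adjusted p = 0.0106) and 1.11 without vehicle-treated PC3 sample 1 (adjusted p = 0.399).

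GCLM (ENSG00000023909, chr1:93885205-93909456, minus strand) encodes the modifier subunit of glutamate-cysteine ligase, the enzyme of the rate-limiting step of glutathione synthesis. It was measured at 125, 124 and 106 CPM in vehicle-treated and at 106, 106 and 117 CPM in pentamidine-treated PC3 cells, and these groups overlapped (log2 fold change -0.11, SE 0.065, adjusted p = 0.21). Without vehicle-treated PC3 sample 3, the lowest of its group, the value was -0.18 (adjusted p = 0.0242). In DU145 cells GCLM was at 95.9, 100 and 101 CPM with vehicle and at 83.5, 79.6 and 81.6 CPM with pentamidine. All treated samples were below all vehicle samples, a fall of 0.28 on the log2 scale, or 1.21-fold (SE 0.045, adjusted p = 1.6e-06). The difference between the lines was -0.17 (SE 0.081, adjusted p = 0.15), and it was -0.22 (adjusted p = 0.0373) without vehicle-treated PC3 sample 1. GCLC, the catalytic subunit of the same enzyme, had log2 fold changes of 0.04 in PC3 (SE 0.076, adjusted p = 0.69) and -0.04 in DU145 cells (SE 0.067, adjusted p = 0.7).

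NQO1 (ENSG00000181019, chr16:69706996-69726951, minus strand) encodes NAD(P)H quinone dehydrogenase, which reduces quinones to hydroquinones. It was measured at 202, 227 and 230 CPM in vehicle-treated and at 337, 356 and 337 CPM in pentamidine-treated PC3 cells, and at 175, 184 and 174 against 312, 298 and 287 CPM in DU145 cells. Every treated sample of both lines exceeded every vehicle sample of either line. The rise was 1.57-fold in PC3 (log2 0.65, SE 0.057, adjusted p = 8.7e-08) and 1.69-fold in DU145 cells (log2 0.75, SE 0.036, adjusted p = 2.9e-24). NQO1 was the one gene of those that rose in both lines with a larger fold in DU145 cells, although the difference of 0.11 (SE 0.068) did not pass the test (adjusted p = 0.31). An antisense gene, AC092115.2, covers 17.7% of its exon length.

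HMOX1 (ENSG00000100292, chr22:35380361-35394214, plus strand) encodes heme oxygenase 1, which opens heme to biliverdin and releases its iron and carbon monoxide. It was measured at 224, 212 and 226 CPM in vehicle-treated PC3 cells and at 621, 583 and 557 CPM after pentamidine. This was a 2.67-fold rise (log2 1.42, SE 0.053, adjusted p = 7.6e-13), above that of 98.3% of the genes tested. In DU145 cells it was at 631, 614 and 594 CPM with vehicle already and at 813, 796 and 767 CPM with pentamidine, a 1.3-fold rise (log2 0.37, SE 0.031, adjusted p = 7.5e-15). The difference between the responses was -1.04 (SE 0.061, adjusted p = 4.5e-13). The levels of pentamidine-treated PC3 and vehicle-treated DU145 cells overlapped. The gap between the means of PC3 and DU145 cells was wide with vehicle (221 against 613 CPM) and narrower with pentamidine (587 against 792 CPM).

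FTH1 (ENSG00000167996, chr11:61959718-61967660, minus strand), the heavy chain with the ferroxidase centre, varied more between samples of a group than the other genes apart from SRXN1. It was measured at 181, 117 and 169 CPM in vehicle-treated and at 378, 469 and 424 CPM in pentamidine-treated PC3 cells, and at 122, 149 and 222 against 280, 364 and 359 CPM in DU145 cells. The SD was 31.6% of the mean in vehicle-treated DU145 and 21.9% in vehicle-treated PC3 cells. Even so, the treated samples did not overlap with the vehicle samples, and FTH1 rose 2.73-fold in PC3 (log2 1.45, SE 0.11, adjusted p = 1.5e-08) and 2.04-fold in DU145 cells (log2 1.03, SE 0.085, adjusted p = 9.7e-15). With edgeR's robust estimate of the spread, an alternative chosen after the data were seen, the adjusted p-values were 0.00496 in PC3 and 0.0479 in DU145 cells. The log2 difference between the lines, -0.42 (SE 0.20), did not pass the test (adjusted p = 0.15), but it was -0.55 without vehicle-treated PC3 sample 1 (adjusted p = 0.00451) and -0.60 without vehicle-treated DU145 sample 1 (adjusted p = 0.0248). It shrank to -0.15 without vehicle-treated DU145 sample 3 (adjusted p = 0.613) and to -0.26 without vehicle-treated PC3 sample 2 (adjusted p = 0.394).

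Of the exon length of FTH1, 62.4% overlaps BEST1 on the opposite strand, which held 118 counts in the 12 samples. FTH1 also has near-identical processed pseudogenes, and the 15 listed in the count table held 1.85% to 6.78% as many reads as FTH1 itself. How the counting treated reads that fit both, and whether it used strand, is not stated.

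FTL (ENSG00000087086, chr19:48965301-48966878, plus strand), the light chain that aids iron core formation, was the most abundant of the 9 mRNAs. It was measured at 546, 635 and 655 CPM in vehicle-treated and at 1407, 1386 and 1292 CPM in pentamidine-treated PC3 cells, a 2.23-fold rise (log2 1.16, SE 0.064, adjusted p = 1.9e-10). In DU145 cells it was at 805, 861 and 807 CPM with vehicle and at 1351, 1270 and 1280 CPM with pentamidine, a 1.58-fold rise (log2 0.66, SE 0.031, adjusted p = 8.1e-25). The response was smaller in DU145 cells by 0.50 (SE 0.072, adjusted p = 6.8e-06). The treated samples of both lines overlapped with each other, while the vehicle samples did not. Its 7 listed pseudogenes held 0.1% to 0.35% as many reads as FTL.

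The responses of 5 of the 9 genes thus differed between the lines in a model of all 12 samples. NFE2L2, TXNRD1, HMOX1 and FTL had a lower log2 fold change in DU145 than in PC3 cells, against 10.2% of the 15226 genes tested, and KEAP1 had a higher one, against 10.3%, with the limit given above. The median difference over the 9 genes was -0.42, beside 0.01 over all genes tested.

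With vehicle alone, the lines differed in 6 of the 8 genes tested. HMOX1 was 2.83-fold higher in DU145 cells (log2 1.50, SE 0.046, adjusted p = 7.3e-14) and FTL 1.37-fold higher (log2 0.45, SE 0.061, adjusted p = 6e-06), where 33.8% of 14394 genes were higher. NFE2L2 (log2 -0.30, SE 0.052, adjusted p = 9.7e-05), KEAP1 (-0.32, SE 0.057, adjusted p = 0.00012), NQO1 (-0.28, SE 0.057, adjusted p = 0.00038) and GCLM (-0.23, SE 0.062, adjusted p = 0.0037) were lower in DU145 cells, where 31.5% of genes were lower. TXNRD1 (0.03, SE 0.043, adjusted p = 0.58) and FTH1 (0.11, SE 0.17, adjusted p = 0.59) overlapped between the lines. The vehicle samples of the other 6 did not overlap, which was the case for 69.1% of all genes tested. SRXN1 had too few counts to be tested here. It was lower in DU145 cells by 2.03 without a filter on low counts (SE 0.497, adjusted p = 0.000181). In a fit of all 12 samples the difference was -2.04 (SE 0.63, adjusted p = 0.00593). Its vehicle samples overlapped between the lines, and its counts are uncertain as described above.

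Levels can be set side by side only per length, and CPM were therefore divided by the exon length of each gene in kilobases. On this scale FTL stood first in every group, at 697 ± 66.5 CPM per kb in vehicle-treated PC3, 1551 ± 69.5 in pentamidine-treated PC3, 939 ± 35.8 in vehicle-treated DU145 and 1481 ± 50.4 CPM per kb in pentamidine-treated DU145 cells (SD, n = 3). HMOX1 followed with 91.8 ± 3.19, 244 ± 13.3, 255 ± 7.62 and 329 ± 9.61 CPM per kb, and FTH1 came next with 76.6 ± 16.8, 209 ± 22.4, 81 ± 25.6 and 165 ± 23.2 CPM per kb. FTH1 overlapped with HMOX1 and with NQO1 in vehicle-treated PC3 cells only. TXNRD1 and NQO1 came after FTH1, at 54.6 to 123 CPM per kb, and their samples overlapped in both groups of DU145 cells. KEAP1 followed them in all groups, between 34.4 and 43.6 CPM per kb.

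Below KEAP1 lay GCLM, NFE2L2 and SRXN1. GCLM lay above NFE2L2 with vehicle (21.8 ± 1.97 against 18.9 ± 0.509 CPM per kb in PC3 and 18.3 ± 0.518 against 15.1 ± 0.417 in DU145 cells) and below it with pentamidine (20.2 ± 1.14 against 31.9 ± 0.609 and 15 ± 0.36 against 17.3 ± 0.167 CPM per kb), without overlap in any group. The order of GCLM and NFE2L2 depends on the lengths used, 5420 and 5979 bases, which count the exons of all annotated transcripts. Undivided, their means were close with vehicle, at 118 and 113 CPM in PC3 and at 99.1 and 90.4 CPM in DU145 cells. Which transcripts these cells held was not tested. SRXN1 was last, at 0.104 to 0.447 CPM per kb. In count terms, FTL ranked 164th in vehicle-treated and 53rd in pentamidine-treated PC3 cells among all genes by mean CPM, and 118th and 42nd in DU145 cells.

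**Figure D3:**
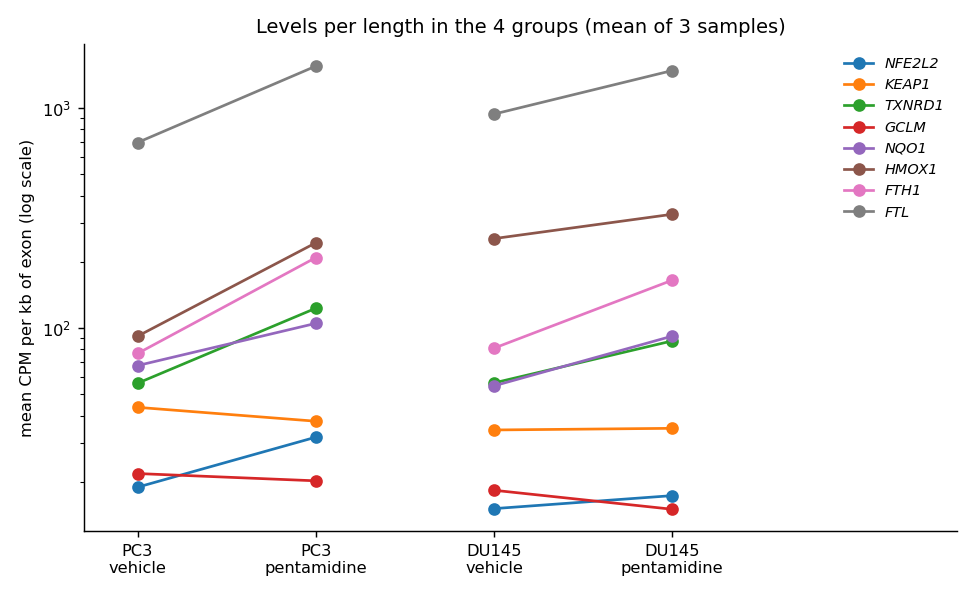
Mean CPM per kb of exon (y axis, log scale) of 8 of the genes in the 4 groups (x axis), with a line joining vehicle and pentamidine within each line; SRXN1, at or below 0.447 CPM per kb, is left out. FTL is highest throughout, and KEAP1 stays between 34.4 and 43.6 CPM per kb. By the exon lengths used, NFE2L2 and GCLM change places after pentamidine in both lines.

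Other genes of the pathway were taken from 6 lists, 68 genes of which 67 were in the count table. Of those tested, 14 of 59 rose and 10 fell in PC3 cells (23.7% and 16.9%), and 13 of 57 rose and 18 fell in DU145 cells (22.8% and 31.6%). Over all genes tested, 21.7% rose and 21.7% fell in PC3 cells and 17.2% rose and 16.8% fell in DU145 cells. Of the 53 list genes with a promoter window, 18 had the antioxidant response element core in at least 1 window (34%), against 16.1% of all 27305 genes with a window. The median log2 fold change was 0.07 in PC3 and -0.04 in DU145 cells, beside 0.76 and 0.51 for the 9 genes above. Both the 9 genes and the lists were chosen with earlier results of these data known, which may have shaped this contrast.

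**Figure D4:**
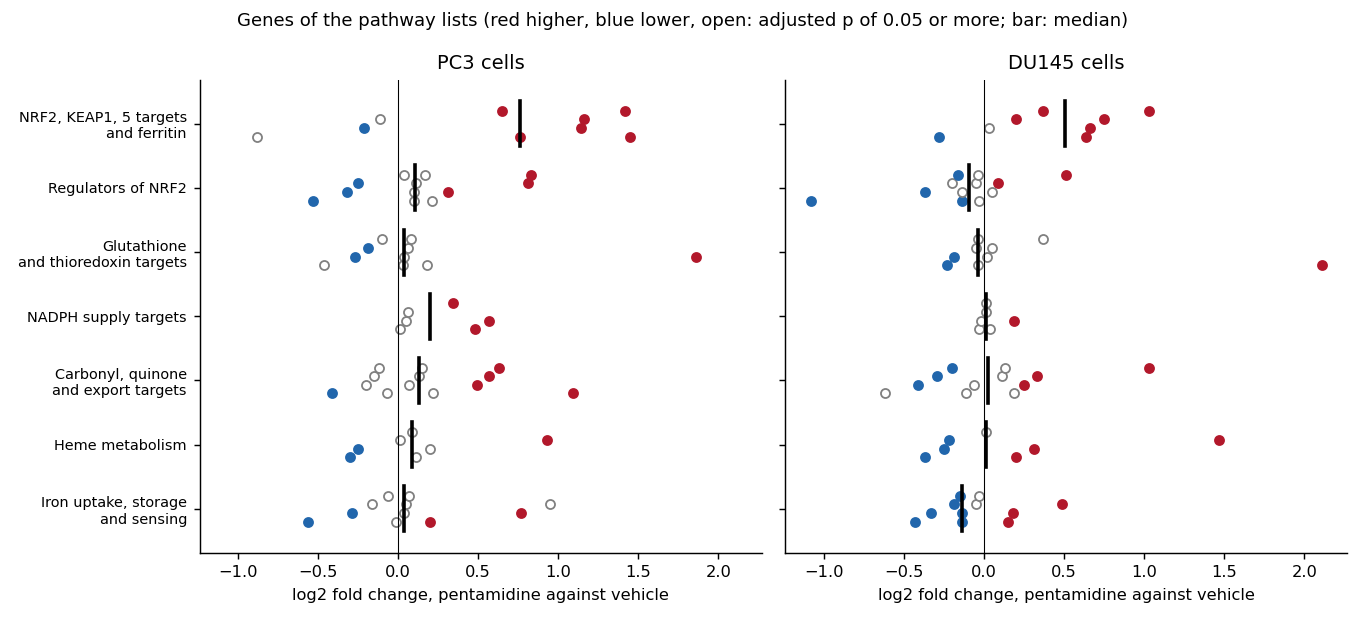
Log2 fold change after pentamidine (x axis) of each tested gene of the 9 described above and of the 6 pathway lists (y axis), in PC3 (left) and DU145 cells (right); red is higher and blue lower at an adjusted p below 0.05, open circles did not pass, and the black bar is the median. The medians of the 6 lists lay between -0.14 and 0.20, while those of the 9 genes were 0.76 and 0.51. All were chosen with earlier results of these data known.

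Among 12 regulators of NRF2, 3 rose and 3 fell in PC3 cells (25% each, against 21.7% each over all genes tested). In DU145 cells 2 rose and 4 fell (16.7% and 33.3%, against 17.2% and 16.8%). SQSTM1, the autophagy receptor p62 that binds KEAP1, rose by 0.83 in PC3 (SE 0.051, adjusted p = 7.5e-10) and by 0.51 in DU145 cells (SE 0.039, adjusted p = 3.1e-16), and the NRF2 relative NFE2L1 rose by 0.81 (SE 0.049, adjusted p = 6.9e-10) and by 0.09 (SE 0.035, adjusted p = 0.041). The KEAP1 ligase partners CUL3 (-0.25 and -0.14) and RBX1 (-0.32 and -0.16) fell in PC3 and DU145 cells, as did NFE2L3 (-0.53 and -0.37). Of the small MAF partners of NRF2, MAFF fell in DU145 cells (-1.08, SE 0.089, adjusted p = 8.8e-15) and was at 0.21 in PC3 cells (adjusted p = 0.071), and MAFG, named after its values were seen, rose in PC3 cells (0.31, adjusted p = 0.00046).

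Among the 11 glutathione and thioredoxin targets, 2 of 10 tested fell in PC3 and 2 of 9 in DU145 cells (20% and 22.2%). Over all genes tested, 21.7% and 16.8% fell. In each line 1 gene rose (10% and 11.1%, against 21.7% and 17.2%), the same gene in both. This was SLC7A11, the cystine importer, which went from 71.2 ± 7.2 to 257 ± 14.4 CPM in PC3 (log2 1.86, SE 0.067, adjusted p = 5.7e-13) and from 21.9 ± 2.03 to 94 ± 1.73 CPM in DU145 cells (SD, n = 3; log2 2.11, SE 0.060, adjusted p = 1.9e-34). SLC7A11 is also an established target of ATF4. PRDX1, a peroxiredoxin reduced by thioredoxin, fell in both lines (-0.27 and -0.19). GSR fell in PC3 (-0.19) and MGST1 in DU145 cells (-0.23), both named after their values were seen, and GCLC, TXN, PRDX6 and GSTP1 did not pass the test in either line. The GSR difference between the lines did not pass the test (adjusted p = 0.18).

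Of the NADPH supply genes, ME1, the cytosolic malic enzyme (0.57, SE 0.062, adjusted p = 9.7e-07), and IDH1, the cytosolic isocitrate dehydrogenase (0.48, SE 0.052, adjusted p = 1.1e-06), rose in PC3 cells. They were at -0.03 (SE 0.069, adjusted p = 0.79) and -0.02 (SE 0.047, adjusted p = 0.77) in DU145 cells. Both were named after their values were seen.

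Of the 18 carbonyl, quinone and export genes, 13 were tested in PC3 and 12 in DU145 cells, and the aldo-keto reductases AKR1B10, AKR1C1, AKR1C2 and AKR1C3 were too low to be tested in either line. ABCC3, an exporter of conjugates, rose in both lines (1.09, SE 0.085, adjusted p = 1.7e-08, and 1.03, SE 0.13, adjusted p = 2e-09), and so did TRIM16L (0.49 and 0.25). OSGIN1 (0.63) and TRIM16 (0.57) rose and CBR1 (-0.41) fell in PC3 cells. PTGR1 (0.33) rose and AKR1B1 (-0.41), UGDH (-0.29) and PIR (-0.20) fell in DU145 cells. These 7 were named after their values were seen. The differences between the lines did not pass the test for TRIM16 (adjusted p = 0.083), PTGR1 (adjusted p = 0.27) and PIR (adjusted p = 0.45).

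Among heme genes, 1 of 7 tested rose and 2 fell in PC3 cells (14.3% and 28.6%, against 21.7% each over all genes tested). In DU145 cells 3 of 7 rose and 3 fell (42.9% each, against 17.2% and 16.8%). SLC48A1, which carries heme out of the endolysosome, rose by 0.93 in PC3 (SE 0.057, adjusted p = 8.1e-10) and by 1.47 in DU145 cells (SE 0.042, adjusted p = 8.1e-35). HMOX2, the constitutive heme oxygenase (-0.25 and -0.25), and BLVRA, biliverdin reductase (-0.30 and -0.37), fell in both lines, opposite to HMOX1. In DU145 cells BLVRB (0.20) and HEBP1 (0.31) rose and ALAS1, the first enzyme of heme synthesis, fell (-0.22), all 3 named after their values were seen. In PC3 cells BLVRB was at 0.20 as well (SE 0.11, adjusted p = 0.16) and HEBP1 at 0.09 (adjusted p = 0.47). The differences between the lines did not pass the test for BLVRB (adjusted p = 0.99) and HEBP1 (adjusted p = 0.24).

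Among iron genes, 2 of 11 tested rose and 2 fell in PC3 cells (18.2% each, against 21.7% each over all genes tested). In DU145 cells 3 of 11 rose and 6 fell (27.3% and 54.5%, against 17.2% and 16.8%). The metal importer SLC39A14 rose in both (0.77, SE 0.053, adjusted p = 3.6e-09, and 0.18, SE 0.035, adjusted p = 6.3e-05), as did the iron chaperone PCBP2 (0.20 and 0.15). The endosomal ferrireductase STEAP3 (-0.56 and -0.33) and the chaperone PCBP1 (-0.29 and -0.14) fell in both. Named after their values were seen, CYBRD1 (0.49) rose and TFRC (-0.15), SLC11A2 (-0.14), ACO1 (-0.43) and NCOA4 (-0.19), which delivers ferritin to the lysosome, fell in DU145 cells. TFRC, the transferrin receptor, was at -0.01 in PC3 cells (SE 0.052, adjusted p = 0.91). CYBRD1 was at 0.95 in PC3 cells (SE 0.50, adjusted p = 0.13), on at most 18 counts per sample. The differences between the lines did not pass the test for CYBRD1 (adjusted p = 0.58), TFRC (adjusted p = 0.17) and SLC11A2 (adjusted p = 0.11).

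Some of these smaller changes lost their call when 1 sample was left out. In PC3 cells the call of GSR was lost without vehicle sample 1 or pentamidine sample 2, that of PCBP2 without pentamidine sample 1 and that of HMOX2 without pentamidine sample 3, with adjusted p-values of 0.0596 to 0.114. In DU145 cells CUL3 was lost without vehicle sample 2 (0.0523), PCBP1 without vehicle sample 3 (0.0654), PCBP2 without pentamidine sample 1 (0.0546), HEBP1 without vehicle sample 1 or pentamidine sample 1 (up to 0.0613), CYBRD1 without vehicle sample 1 or 3 or pentamidine sample 2 (up to 0.222) and SLC11A2 without vehicle sample 1 or 3 or pentamidine sample 3 (up to 0.152). NFE2L1 and RBX1 were lost there without vehicle sample 2 or 3 or pentamidine sample 2 or 3 (up to 0.313 and 0.179), TRIM16L without vehicle sample 1 or 2 or pentamidine sample 2 or 3 (up to 0.161), BLVRB without vehicle sample 1 or 3 or pentamidine sample 2 (up to 0.209), and PIR without any sample but pentamidine sample 1 (up to 0.168). With all samples kept, DESeq2 also lost the DU145 calls of NFE2L1, RBX1, SLC11A2, CYBRD1, PIR, TRIM16L and BLVRB (adjusted p of 0.0705 to 0.128). TFRC kept its call in DU145 cells without any 1 sample, although it was -0.10 without pentamidine sample 1, and lost it with DESeq2 (-0.16, adjusted p = 0.0812).

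For each of the 9 genes, the 2 other genes with the most similar pattern over the 4 groups were found among 10044 genes with a mean of at least 100 counts, by the root mean square difference of centred group means of log2 CPM. FTL was closest to TSEN15 (0.006) and CD55 (0.043), with log2 fold changes of 1.17 and 1.10 in PC3 and 0.66 and 0.61 in DU145 cells. FTH1 was closest to CEBPG (0.044) and PSPH (0.082), NFE2L2 to RNF41 (0.035) and PRKCA (0.041), NQO1 to TNKS1BP1 (0.029) and TM7SF2 (0.069), and TXNRD1 to AL162151.2 (0.053) and SLC7A1 (0.068). KEAP1 was closest to PRR11 (0.010) and SGCE (0.012) and GCLM to C12orf4 and UTP3 (both 0.023). HMOX1, which had the widest range of the 9 (1.84 between its highest and lowest group mean of log2 CPM), was closest to DOCK6 (0.093) and TSNARE1 (0.128). SRXN1 was closest to SMAD6 (0.134) and IER5L (0.146), on few counts. None of these genes is in the pathway lists.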

How the data were processed

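The authors read Oligo(dT)-enriched RNA as Illumina read pairs, aligned reads with HISAT2 2.1.0 to GRCh38 and tested genes with DESeq 1.18.1, per the labels. The counting program, its strand setting and its treatment of multiply mapped reads are not given in the sources used here. Raw counts per gene were deposited by the authors without normalization. A second deposited table repeats them scaled, and the authors' comparison tables hold fold changes and p-values, and none of these was used. Entries that repeated a name with identical counts were merged, from 33595 to 32077 genes. All 9 genes have the same position in GENCODE release 29, whose exon union gave lengths.

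Genes were tested with edgeR 4.0.16 in R 4.3.3 (quasi-likelihood test, TMM, filterByExpr at a minimum count of 10, Benjamini-Hochberg adjustment over all genes tested, threshold 0.05, two-sided). Each line was fitted on its 6 samples, the difference of responses on all 12 and the vehicle comparison on 6. CPM used TMM factors over 12 samples. The script was tested on simulated counts. Total counts were 13514195 to 15131436 per sample. Samples of a group differed by more than counting noise (mean chi-square per gene of 1.72 to 7.3 over 12 pairs), so the spread between samples added to counting noise in setting the precision.

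Named pathway genes were, per list and direction, up to 3 with the largest mean log2 fold change among those past the test in both lines and up to 2 past it in 1 line with an absolute log2 fold change above 1, all with 10 or more counts in each sample of whichever group was higher. Others are said to be named after their values were seen. The 9 genes and the lists were chosen with earlier results of these data known. Alternatives were DESeq2 1.42.0, RLE, library size alone, TMM without mitochondria-encoded genes, no filter, a stricter filter (10 counts in each sample), a replicate block, all 12 samples in 1 fit, an adjusted p below 0.01, ferritin reads summed with pseudogenes, each sample left out, and, chosen after seeing the data, a robust spread estimate. TMPRSS2, CD3E and FTMT were not analysed here, and a few genes tested are not reported here.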

Additional observations from a re-analysis of the deposited data

Results flagged for a closer look

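The responses to pentamidine differed between the lines, by the interaction term of the edgeR model over all 12 samples, for 5 of the 9 genes. The log2 fold change in DU145 minus that in PC3 cells was -1.04 for HMOX1, -0.56 for NFE2L2, -0.50 for TXNRD1, -0.50 for FTL and 0.24 for KEAP1. The HMOX1, NFE2L2, TXNRD1 and FTL differences held under every alternative run, and that of KEAP1 did not.

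Of the pathway genes that rose or fell in either line (24 in PC3 and 31 in DU145 cells, some in both), 16 were flagged by the same test. Over all 15226 genes tested, 10.2% had a lower and 10.3% a higher response in DU145 cells. The 2 are not alike, because only list genes already past the test in a line were looked at. MAFK (-0.37, adjusted p = 0.011), which passed in neither line, was left out for that reason. Lower log2 fold changes in DU145 cells were measured for MAFF (-1.29), NFE2L1 (-0.72), ME1 (-0.60), SLC39A14 (-0.59), OSGIN1 (-0.52), IDH1 (-0.50), ACO1 (-0.50), AKR1B1 (-0.48), UGDH (-0.42), MAFG (-0.36), ALAS1 (-0.33), SQSTM1 (-0.32), MGST1 (-0.29) and NCOA4 (-0.24). Higher ones were measured for SLC48A1 (0.54) and CBR1 (0.35). The OSGIN1 difference was lost without PC3 pentamidine sample 1 or 2, DU145 vehicle sample 1 or DU145 pentamidine sample 2 (adjusted p of 0.061 to 0.102), and the CBR1 difference was lost without any of 10 of the 12 samples (0.0548 to 0.136).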

How the results depend on the processing

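Over the 9 genes, 421 of 431 values recomputed for differences that had passed the test kept their direction and their side of the threshold under the alternatives, and the other 10 (9 for the KEAP1 difference between lines, 1 for KEAP1 in PC3 cells) kept their direction only. The number of the 9 genes past the test ranged from 6 to 8 in PC3 cells, was 7 throughout in DU145 cells, and ranged from 4 to 7 for the difference of responses and from 6 to 7 between vehicle-treated lines. The gene added between vehicle-treated lines was SRXN1, on few counts. For the pathway lists it ranged from 22 to 28 in PC3 and from 22 to 32 in DU145 cells, and 89 of 1216 values recomputed for their called genes no longer passed, all with the same direction. Directions turned only for differences that had not passed. KEAP1 in DU145 cells ranged from -0.021 to 0.064 when 1 sample was left out, turning without pentamidine sample 1. The vehicle difference of FTH1 ranged from -0.17 to 0.28, turning without PC3 sample 2 or DU145 sample 3, and that of TXNRD1 was -0.051 with library size alone. The FTH1 difference between lines passed the test without a filter on low counts (-0.43, adjusted p = 1.23e-09). The SE of that fit was only 0.065, against 0.2 in the main fit and 0.353 with DESeq2 (adjusted p = 0.432). Over all genes, 3112 responses differed between the lines at an adjusted p below 0.05 and 1996 below 0.01. The causes were not tested.

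The labels number the replicates alike in every group. Same-numbered samples did not deviate in the same direction (correlations of deviations from group means of 0, 0.01 and -0.43 in PC3 and -0.07, -0.04 and 0.08 in DU145 cells over 6248 genes), so the numbers gave no sign of pairing. Between differently numbered vehicle and pentamidine samples, correlations ran from -0.34 to 0.39 in PC3 and from -0.14 to 0.17 in DU145 cells. Whether samples shared a batch under other numbers was not tested. With the replicate block, 7 of the 9 genes passed the test in PC3 and 7 in DU145 cells, with 5599 and 4794 genes past it in all against 6010 and 4860 without the block, and no call of the 9 genes changed.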
